A study of Mus musculus with 12 samples.

Results

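The guidance cue genes of the mouse left ventricle were followed 7 days after myocardial infarction (MI), a blockage of coronary flow that kills heart muscle, or after a sham operation. They were taken by gene symbol as every semaphorin (Sema), plexin (Plxn), neuropilin (Nrp), ephrin (Efna, Efnb), Eph receptor (Epha, Ephb), Slit, Robo, netrin (Ntn, Ntng) and Unc5 gene in the table. The rule found 72 of 18050 genes. Of these, 70 are guidance ligands or receptors, and Unc50 and Unc5cl match by name only. The MI group and the sham group each held 6 RNA-seq libraries of wild-type left ventricle, numbered 1 to 6, and the labels name no further allele or agent for either group. Whether each library is a different animal is not stated in the labels, nor are strain, age or infarct size, so p-values measure only the spread between these libraries. The processing notes part the libraries into replicates 1 and 2, for which no tool is named, and replicates 3 to 6, for which tools are named. Replicates 3 to 6 of a group lay about as close as repeat libraries of 1 sample would.

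Guidance cues were first described as signals that attract or repel growing axons. A ligand on 1 cell or in the matrix binds a receptor on another cell, and the receptor changes the actin cytoskeleton through small GTPases and their regulators. Semaphorins act through plexins and neuropilins, ephrins through Eph receptors and Slits through Robos. Netrins other than the Ntng genes act through Unc5 receptors, Dcc and neogenin. In the heart the same genes are known for shaping vessels, valves, septa and the path of nerve fibres, and several are expressed by endothelial cells, fibroblasts, macrophages and cardiomyocytes.

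The deposited expected counts summed to 18546662 and 18602226 in MI 1 and 2, to 14168412 to 14410783 in MI 3 to 6, to 15541334 and 16066681 in sham 1 and 2, and to 9140353 to 9750764 in sham 3 to 6. Levels below are CPM, the usual depth-scaled count, after TMM scaling unless TPM is named. The tissue label was checked against its markers. All 5 cardiomyocyte markers (Myh6, Tnnt2, Actn2, Ryr2, Pln) were detected in every library and fell after MI. Their summed level was 5141 and 3290 CPM in MI 1 and 2 and 12356 to 12477 CPM in MI 3 to 6, against 51415 and 47333 CPM in sham 1 and 2 and 32843 to 33362 CPM in sham 3 to 6. The 5 fibroblast markers summed to 31862 and 25601 CPM in MI 1 and 2 and 10392 to 10475 CPM in MI 3 to 6, against 1497 to 2204 CPM in sham, with 4 of 5 called as risen. All 5 macrophage and monocyte markers rose. Markers of lung epithelium summed to 171 to 175 CPM in MI 3 to 6, 2.79 and 2.62 CPM in MI 1 and 2, and at most 1.30 CPM in sham. Neuron markers summed to 1.00 to 3.36 CPM in MI and 2.48 to 7.39 CPM in sham. In bulk tissue, more or fewer cells of a type and more or less RNA per cell cannot be told apart, and the part of these shifts in the results on guidance genes was not tested.

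More guidance genes rose than fell after MI. A gene was called as risen or fallen only where 2 edgeR quasi-likelihood tests agreed on its direction with a p below 0.05 after Benjamini-Hochberg adjustment. The first used all 12 libraries with the replicate set as covariate. The second counted replicates 3 to 6 of a group once, as their summed counts. Of 59 members tested both ways, 27 rose (45.8%) and 6 fell (10.2%), and 26 were not called. Over all 13592 genes tested both ways, 28.1% rose and 29.8% fell. Without Unc50 (0.36 ± 0.076), 26 guidance members rose. Scaling by library size alone called 34 members as risen and 5 as fallen, and 6264 and 2477 of all genes, against 3823 and 4055 of all genes with TMM scaling. It put Ephb4, Efna1, Robo4, Nrp1, Sema3b and Sema7a, none of them called and all below 0 with TMM scaling, at estimates above 0. The median log2 fold change of MI over sham was 0.49 over the members and 0.014 over all genes tested. Of the 13 members not tested both ways, 12 were below the filter on low counts, with at most 35 counts in any library. These were Epha5, Epha8, Epha10, Efna3, Robo3, Slit1, Unc5a, Unc5d, Ntn5, Ntng1, Sema4f and Unc5cl. Sema3e passed that filter in the 12-library test alone (1.56 ± 0.35). Epha3, Unc5c, Sema3e and Sema4g were under 1 CPM in every sham library, so they passed the filter through their MI libraries. Sham counts were also low for Efna4 (1 to 11), Epha1 (2 to 11) and Ephb2 (5 to 16). These members too passed the filter through their MI libraries. The counts and medians over tested members are therefore descriptions.

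**Figure D1:**
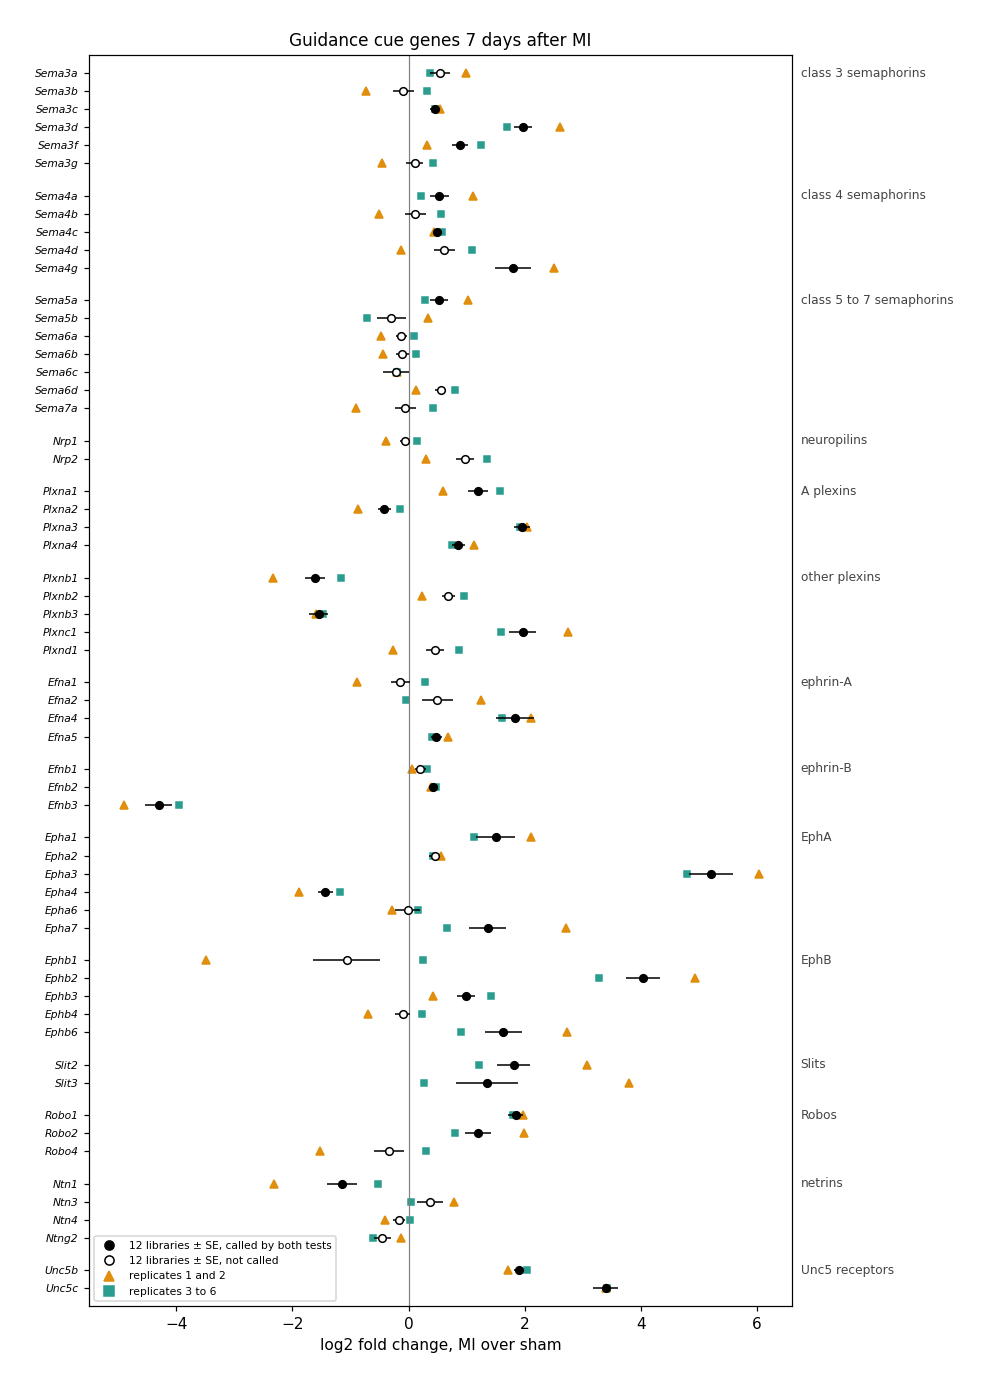
Log2 fold change of MI over sham for each guidance gene tested both ways, ordered by family. Circles with bars are the 12-library value ± SE, filled where both tests called the gene, and triangles and squares are the values within replicates 1 and 2 and within replicates 3 to 6. Epha3 and Ephb2 lie farthest to the right and Efnb3 farthest to the left, and for Ephb1 and Slit3 the triangle and the square lie far apart. Sema4g has no square because it was below the filter in replicates 3 to 6.

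By role, 12 of the ligands tested both ways rose, 2 fell and 17 were not called. Of the receptors tested both ways, 14 rose, 4 fell and 9 were not called. In replicates 1 and 2 alone, 30 members of 63 tested rose and 16 fell at an adjusted p under 0.05, against a background of 34.1% and 32.9% of 14076 genes. In replicates 3 to 6 alone, 43 of 60 rose and 9 fell, against 42.2% and 39.5% of 13821 genes. In 16 tested members every MI library exceeded the highest sham library, and in 5 every MI library was under the lowest, where 42.6% of all genes tested were separated in either direction. For these members the exact two-sided permutation test over the 12 libraries gave p = 0.0022, the smallest value it can give. Separation of the groups fixes that value in advance, so it adds nothing to the separation itself. Leaving out sham 1 or sham 2 lowered the number that rose to 12 and 11. The rises called in every fit that left out 1 library were those of Unc5b, Unc5c, Sema3d, Efna4, Epha3, Ephb2, Plxna3, Plxna4, Plxnc1, Robo1 and Slit2, and the falls were those of Efnb3, Epha4, Plxnb1 and Plxnb3. The other rises lost their call without sham 2, and all of these but Plxna1 also without sham 1. Without the replicate set as covariate 16 members rose, and the calls of Efna5, Efnb2, Ephb3, Plxna1, Plxna4, Sema3c, Sema3f, Sema4a, Sema4c, Sema5a and Unc50 as risen and of Plxna2 as fallen were lost.

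RefSeq promoter windows on GRCm38.p6 were matched for 63 of the 72 members, and 250 bases before each start were searched on both strands. The GC box letters GGGCGG were present in 46 of 63 member windows (73.0%) and in 42.7% of 17492 windows of protein-coding genes. The TATA box letters TATAAA were present in 2 member windows (3.17%), those of Slit2 and Efnb2, and in 12.4% of all windows. The median GC content was 64.4% in the member windows and 55.2% in all. The AP-1 letters TGANTCA were present in 2 members, the E-box letters CACGTG in 3 and the TEAD letters GGAATG in 8, and in 6.22%, 6.64% and 11.6% of all windows. Of the members that rose, 17 of 24 with a window held a GC box, as did 3 of 4 that fell. These matches are descriptions of letters, not of binding. The windows of Slit2 and Efnb2 are shown because they alone among the 63 member windows searched hold a TATA box, and that of Epha3 because it had the largest rise and holds no GC box. Capitals mark GC box, TATA box and TEAD matches on either strand. Slit2 is at chr5:47982905-47983154 (plus strand), Efnb2 at chr8:8661243-8661492 (minus strand) and Epha3 at chr16:63864176-63864425 (minus strand).
Slit2: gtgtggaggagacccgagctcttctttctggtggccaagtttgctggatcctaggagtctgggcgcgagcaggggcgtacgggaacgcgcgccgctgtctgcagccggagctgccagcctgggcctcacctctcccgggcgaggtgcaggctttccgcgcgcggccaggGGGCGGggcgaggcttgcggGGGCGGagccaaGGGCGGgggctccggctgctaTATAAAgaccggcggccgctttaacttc
Efnb2: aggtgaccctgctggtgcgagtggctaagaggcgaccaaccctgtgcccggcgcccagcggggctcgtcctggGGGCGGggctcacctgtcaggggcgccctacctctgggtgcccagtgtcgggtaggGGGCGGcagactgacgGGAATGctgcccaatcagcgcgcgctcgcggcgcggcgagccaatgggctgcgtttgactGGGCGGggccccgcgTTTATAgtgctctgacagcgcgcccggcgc
Epha3: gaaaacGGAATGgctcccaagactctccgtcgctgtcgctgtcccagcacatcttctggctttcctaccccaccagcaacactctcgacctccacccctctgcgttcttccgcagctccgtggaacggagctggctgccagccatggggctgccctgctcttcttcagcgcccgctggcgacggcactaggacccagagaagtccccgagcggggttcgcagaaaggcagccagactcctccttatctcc

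Among the semaphorins, 7 of those tested both ways rose and the other 11 were not called. The semaphorins are secreted (class 3) or membrane-bound (classes 4 to 7) ligands. In class 3, Sema3c, Sema3d and Sema3f rose. Sema3d, a secreted ligand known for its part in patterning the pulmonary veins, had 26.1 and 29.5 CPM in MI 1 and 2 and 23.2, 22.7, 20.04 and 22.4 CPM in MI 3 to 6, against 4.54 and 4.55 CPM in sham 1 and 2 and 6.87, 6.6, 6.77 and 7.08 CPM in sham 3 to 6. Every MI library lay above 20 CPM and every sham library below 8 CPM. The log2 fold change of MI over sham was 1.98 ± 0.15 (SE, adjusted p = 2.34e-07), with adjusted p = 0.00162 when replicates 3 to 6 counted as 1 library. Sema3c, a ligand needed for septation of the outflow tract, changed by 0.45 ± 0.077 on the log2 scale, and Sema3f, a ligand of Nrp2, by 0.89 ± 0.14. The call of Sema3c was lost without MI 2, sham 1 or sham 2, and that of Sema3f without MI 1, MI 2, sham 1 or sham 2, with DESeq2 size factors and with no filter on low counts. Sema3b, the most abundant of the class by TPM, was not called. It had 58.6 and 34.00 CPM in MI 1 and 2 and 26.2 to 28.6 CPM in MI 3 to 6, against 71.5 and 83.1 CPM in sham 1 and 2 and 21.3 to 23.4 CPM in sham 3 to 6. By CPM it was thus lower in MI than in sham in replicates 1 and 2 and higher in replicates 3 to 6. By the deposited TPM it overlapped in replicates 1 and 2, at 27.5 to 44.8 in MI and 34.2 to 39.8 in sham. Sema3a, a repellent of sympathetic axons, had 3.7 and 4.55 CPM in MI 1 and 2 and 4.2 to 6.83 CPM in MI 3 to 6, against 1.77 and 2.38 CPM in sham 1 and 2 and 4.08 to 4.46 CPM in sham 3 to 6. It was called over 12 libraries (adjusted p = 0.0117) but not with replicates 3 to 6 summed (adjusted p = 0.0767), and the groups overlapped. Sema3g, an endothelial semaphorin, was not called (0.10 ± 0.14), with ranges that overlapped.

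In class 4, Sema4a, Sema4c and Sema4g rose. Sema4g had the largest estimate, 1.80 ± 0.31 (adjusted p = 0.000185, and adjusted p = 0.0102 counted once), at low levels. It had 4.76 and 3.95 CPM in MI 1 and 2 and 1.11, 0.626, 0.925 and 0.865 CPM in MI 3 to 6, against 0.77 and 0.745 CPM in sham 1 and 2 and 0.572, 0.367, 0.233 and 0.472 CPM in sham 3 to 6. The call of Sema4g was lost without sham 1 and without sham 2. Sema4a, an immune semaphorin, changed by 0.53 ± 0.16 and Sema4c, a ligand of Plxnb2, by 0.49 ± 0.074. Sema4a was not called without MI 1, MI 2, sham 1 or sham 2, and Sema4c not without MI 1, sham 1 or sham 2. Sema4d, the Plxnb1 ligand and the most abundant class 4 member by TPM, was not called over the sets together. It had 71.1 and 82.98 CPM in MI 1 and 2 and 30.2, 31.5, 30.9 and 32.4 CPM in MI 3 to 6, against 92.7 and 76.97 CPM in sham 1 and 2 and 12.9, 17.1, 15.8 and 12.6 CPM in sham 3 to 6. The MI and sham values overlapped in replicates 1 and 2 and stood apart in replicates 3 to 6. Sema4b was not called (0.12 ± 0.18).

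In classes 5 to 7, Sema5a alone was called, with a log2 fold change of 0.53 ± 0.16 (adjusted p = 0.00902, and adjusted p = 0.0304 counted once). Sema5a, a membrane semaphorin with thrombospondin repeats, had 16.4 and 15.99 CPM in MI 1 and 2 and 8.09 to 9.29 CPM in MI 3 to 6, against 8.24 and 7.75 CPM in sham 1 and 2 and 5.38 to 9.1 CPM in sham 3 to 6. Its MI and sham ranges overlapped, and the call was lost when MI 1, MI 2, sham 1 or sham 2 was left out. Sema6d, a ligand of Plxna1 in the developing chick heart, was called over 12 libraries (0.55 ± 0.10, adjusted p = 0.000365) but not with replicates 3 to 6 summed (adjusted p = 0.13). The estimates of Sema5b, Sema6a, Sema6b and Sema6c, none of them called, ran from -0.30 to -0.11. Sema7a, a GPI-anchored ligand of Plxnc1, had 37.4 and 37.8 CPM in MI 1 and 2 and 56.5, 56.02, 53.7 and 53.98 CPM in MI 3 to 6, against 68.5 and 72.3 CPM in sham 1 and 2 and 43.6, 40.6, 41.3 and 38.9 CPM in sham 3 to 6. Sema7a was therefore lower in MI in replicates 1 and 2 and higher in MI in replicates 3 to 6, without overlap in either set.

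The neuropilins, co-receptors that bind class 3 semaphorins and VEGF, were not called. Nrp1 had 142 and 162 CPM in MI 1 and 2 and 258 to 265 CPM in MI 3 to 6, against 211 and 188 CPM in sham 1 and 2 and 229 to 242 CPM in sham 3 to 6, with a log2 fold change of -0.066 ± 0.085. Nrp2 had 94.1 and 95.5 CPM in MI 1 and 2 and 104 to 110.03 CPM in MI 3 to 6, against 70.3 and 83.1 CPM in sham 1 and 2 and 40.5 to 43.98 CPM in sham 3 to 6. The MI and sham ranges of Nrp2 did not overlap. It was called over 12 libraries (0.97 ± 0.15, adjusted p = 6.89e-05) and missed the threshold with replicates 3 to 6 summed (adjusted p = 0.054).

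The plexins, the signalling receptors of semaphorins, split in direction: 4 of 9 rose and 3 fell. Among the A plexins, which pair with neuropilins, Plxna1, Plxna3 and Plxna4 rose and Plxna2 fell. Plxna3 had 12.2 and 8.82 CPM in MI 1 and 2 and 4.38 to 5.23 CPM in MI 3 to 6, against 2.77 and 2.31 CPM in sham 1 and 2 and 1.05 to 1.35 CPM in sham 3 to 6. Over 12 libraries the estimate was 1.95 ± 0.13 (adjusted p = 8.1e-08, and adjusted p = 0.00211 counted once), nearly the same in the sets (2.05 in replicates 1 and 2 and 1.92 in replicates 3 to 6). Plxna1, the most abundant A plexin, changed by 1.19 ± 0.17 (adjusted p = 0.023 counted once), and its call was lost without MI 2 and without sham 2. An antisense gene, Gm26811, covers 10.7% of the exon bases of Plxna1, and as strandedness is not given its reads may be shared. Plxna4 changed by 0.86 ± 0.11. Plxna2 fell by 0.42 on the log2 scale (SE 0.11, adjusted p = 0.00376, and adjusted p = 0.0206 counted once), to 23.2 and 23.7 CPM in MI 1 and 2 and 33.8 to 37.8 CPM in MI 3 to 6, against 46.9 and 39.3 CPM in sham 1 and 2 and 35.5 to 40.2 CPM in sham 3 to 6. Scaling by library size alone put its estimate at -0.010, and the call was lost without MI 1, MI 2, sham 1 or sham 2. By the deposited TPM, Plxna2 overlapped in replicates 1 and 2, at 4.73 to 5.06 in MI and 5.01 to 6.2 in sham. In replicates 3 to 6 its TPM was higher in MI, at 5.91 to 6.6 against 4.08 to 4.7 in sham.

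Of the other plexins, Plxnc1 rose and Plxnb1 and Plxnb3 fell. Plxnc1, the Sema7a receptor of leukocytes and other cells, had 28.4 and 51.7 CPM in MI 1 and 2 and 21.5 to 25.3 CPM in MI 3 to 6, against 6.54 and 5.37 CPM in sham 1 and 2 and 6.29 to 9.1 CPM in sham 3 to 6. Its estimate was 1.96 ± 0.23 (adjusted p = 7.61e-06, and adjusted p = 0.00383 counted once). The macrophage markers, which were 3344 and 5008 CPM in sum in MI 1 and 2, 3164 to 3295 CPM in MI 3 to 6, and 517 to 832 CPM in sham, moved the same way, and their part was not tested. Plxnb1, the Sema4d receptor, had 18.9 and 17.7 CPM in MI 1 and 2 and 11.6 to 13.6 CPM in MI 3 to 6, against 105 and 80.03 CPM in sham 1 and 2 and 26.7 to 28.4 CPM in sham 3 to 6. The groups did not overlap, and its log2 fold change was -1.61 ± 0.17 (adjusted p = 4.23e-06, and adjusted p = 0.00237 counted once). Plxnb3, a Sema5a receptor, fell to 1.83 and 2.39 CPM in MI 1 and 2 and 1.17 to 1.29 CPM in MI 3 to 6, against 7.93 and 4.84 CPM in sham 1 and 2 and 2.63 to 3.89 CPM in sham 3 to 6 (-1.55 ± 0.16, adjusted p = 3.25e-06). Plxnb2, a receptor of class 4 semaphorins and the most abundant plexin by TPM, was not called. It had 375 and 394 CPM in MI 1 and 2 and 138 to 147 CPM in MI 3 to 6, against 329.6 and 328 CPM in sham 1 and 2 and 68.2 to 84.9 CPM in sham 3 to 6. Its estimate of 0.68 ± 0.11 was called over 12 libraries (adjusted p = 0.00013) but not with replicates 3 to 6 summed (adjusted p = 0.0933). Scaling by library size alone, which moved the median of all genes by 0.41, called Plxnb2 at 1.09.

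The ephrin-B genes showed the largest fall. Ephrin-Bs are transmembrane ligands of EphB receptors and can signal in both directions between cells. Efnb3, known as a midline repellent in the nervous system, lies on chromosome 11 at 69554092 to 69560205 of GRCm38, minus strand. It had 2.45 and 6.85 CPM in MI 1 and 2 and 6.27, 6.82, 6.91 and 6.05 CPM in MI 3 to 6, against 159.9 and 121 CPM in sham 1 and 2 and 105, 102, 96.6 and 98.6 CPM in sham 3 to 6. Every MI library was below 7 CPM and every sham library above 96 CPM. The log2 fold change was -4.30 ± 0.23 (adjusted p = 1.1e-08, and adjusted p = 0.00127 counted once), -4.91 in replicates 1 and 2 and -3.95 in replicates 3 to 6. The cardiomyocyte markers fell in the same libraries by between 1.62 (Actn2) and 2.45 (Pln) on the log2 scale, and their part was not tested. Efnb2, the arterial ligand of Ephb4, rose to 32.96 and 37.4 CPM in MI 1 and 2 and 39.7 to 46.5 CPM in MI 3 to 6, against 25.9 and 27.9 CPM in sham 1 and 2 and 27.8 to 32.96 CPM in sham 3 to 6. All MI libraries were above sham within each set, by 0.42 ± 0.064 on the log2 scale (adjusted p = 7.1e-05, and adjusted p = 0.0306 counted once). Efnb2 was no longer called without MI 2, sham 1 or sham 2. Efnb1, the ephrin-B gene on the X chromosome, was not called (0.20 ± 0.090).

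The makeup of the ephrin-B family changed with the fall of Efnb3. By the deposited TPM, which is scaled for gene length, Efnb3 held a mean of 7.05% of the family sum in MI 1 and 2 and 12.8% in MI 3 to 6, against 72.5% in sham 1 and 2 and 75.3% in sham 3 to 6. Efnb1 held 56.2% in MI 1 and 2 and 31.6% in MI 3 to 6, against 18.1% in sham 1 and 2 and 9.53% in sham 3 to 6. Efnb2 held 36.8% in MI 1 and 2 and 55.6% in MI 3 to 6, against 9.42% in sham 1 and 2 and 15.1% in sham 3 to 6. The family sum was 46.4 and 30.9 TPM in the MI sets, against 87.0 and 53.9 TPM in the sham sets. The most abundant ephrin-B thus was Efnb3 in sham in both sets, Efnb1 in MI 1 and 2, and Efnb2 in MI 3 to 6.

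Among the ephrin-A genes, GPI-anchored ligands of EphA receptors, Efna4 and Efna5 rose and the other 2 tested were not called. Efna4 had 3.84 and 3.03 CPM in MI 1 and 2 and 1.78, 1.44, 1.6 and 1.05 CPM in MI 3 to 6, against 0.77 and 0.82 CPM in sham 1 and 2 and 1.03, 0.122, 0.233 and 0.472 CPM in sham 3 to 6. Its log2 fold change was 1.83 ± 0.33 (adjusted p = 0.000259, and adjusted p = 0.00504 counted once), and 4731419I09Rik overlaps 10.5% of its exon bases on the other strand. Efna5, whose call was lost without sham 1 or sham 2, changed by 0.48 ± 0.10, and Efna2, not called, by 0.49 ± 0.27. Efna1, the most abundant ephrin-A by TPM and a gene of endothelial cells, was not called. It had 25.1 and 21.5 CPM in MI 1 and 2 and 32.8 to 38.3 CPM in MI 3 to 6, against 39.02 and 46.9 CPM in sham 1 and 2 and 28.6 to 29.8 CPM in sham 3 to 6. Efna1 was lower in MI in replicates 1 and 2 and higher in MI in replicates 3 to 6, with no overlap in either set.

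Of the 6 EphA receptors tested, Epha1, Epha3 and Epha7 rose and Epha4 fell. EphA receptors are tyrosine kinases that bind ephrin-As. Epha3, on chromosome 16 at 63543534 to 63864175, minus strand, is a receptor known from mesenchymal cells of the developing heart valves. It had 9.13 and 6.71 CPM in MI 1 and 2 and 6.15, 7.39, 7.28 and 6.48 CPM in MI 3 to 6, against 0 and 0.224 CPM in sham 1 and 2 and 0, 0.245, 0.35 and 0.354 CPM in sham 3 to 6. The MI libraries held 100 to 190 counts each and the sham libraries 0 to 3. The log2 fold change of MI over sham of 5.20 ± 0.38 (adjusted p = 1.29e-07, and adjusted p = 0.00168 counted once) was the largest of the members, and the size rests on these few sham counts. Epha4, which binds both ephrin classes, had 9.37 and 8.96 CPM in MI 1 and 2 and 15.9, 16.1, 15.3 and 13.7 CPM in MI 3 to 6, against 40.6 and 27.3 CPM in sham 1 and 2 and 36.2, 32.9, 36.6 and 31.5 CPM in sham 3 to 6. The groups did not overlap, and it fell by 1.44 on the log2 scale (SE 0.13, adjusted p = 8.48e-07, and adjusted p = 0.00231 counted once). Epha7 had 36.03 and 30.2 CPM in MI 1 and 2 and 9.25 to 11.4 CPM in MI 3 to 6, against 5.62 and 4.55 CPM in sham 1 and 2 and 5.9 to 6.98 CPM in sham 3 to 6. The groups stood apart (1.36 ± 0.32, adjusted p = 0.00186, and adjusted p = 0.0144 counted once), but the call was lost without sham 1 and without sham 2. Epha1 changed by 1.5 ± 0.33 but was not called without MI 1, sham 1 or sham 2, and Epha2 (0.45 ± 0.098) and Epha6 (-0.018 ± 0.21) were not called.

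Within the EphA family, Epha4 held a mean of 9.89% of the TPM in MI 1 and 2 and 26.7% in MI 3 to 6, against 52.3% in sham 1 and 2 and 58.9% in sham 3 to 6. Epha7 held 37.4% in MI 1 and 2 and 18.1% in MI 3 to 6, against 8.71% in sham 1 and 2 and 11.4% in sham 3 to 6. Epha3 held 9.43% in MI 1 and 2 and 13.2% in MI 3 to 6, against 0.246% in sham 1 and 2 and 0.472% in sham 3 to 6. Epha4 was the most abundant EphA gene in sham in both sets, while Epha7 led in MI 1 and 2 and Epha2 in MI 3 to 6.

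**Figure D2:**
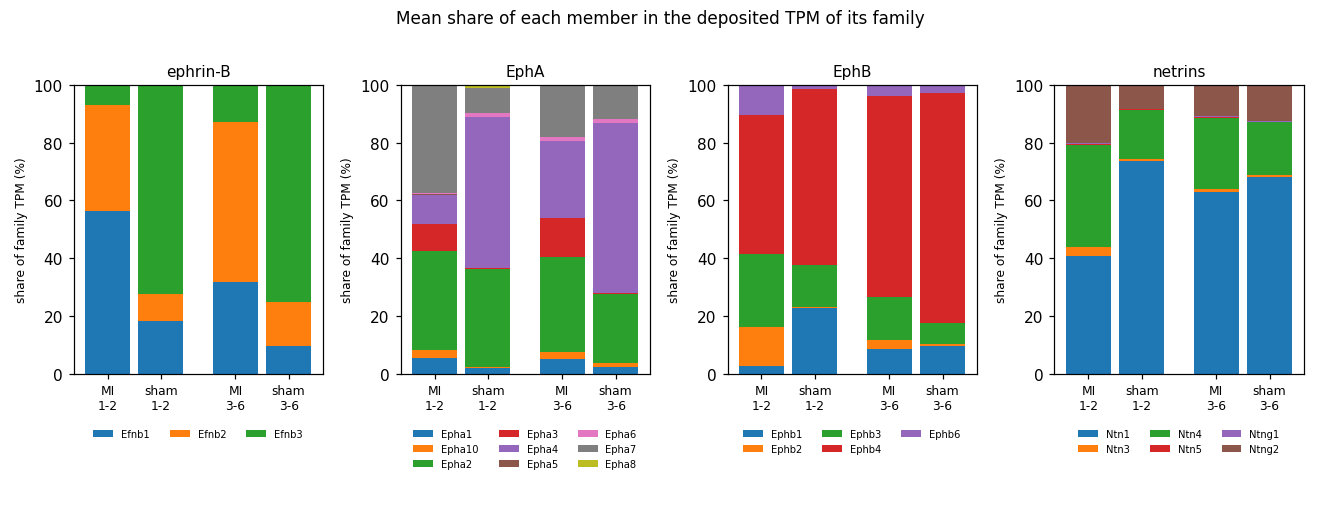
Mean share of each gene in the TPM of its family (percent, y axis) in MI and sham libraries of replicates 1 and 2 and of replicates 3 to 6, with no error shown and no test. Efnb3 takes 72.5% and 75.3% of the ephrin-B sum in sham and 7.05% and 12.8% in MI, and Epha4 takes most of the EphA sum in sham only.

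Of the 5 EphB receptors, Ephb2, Ephb3 and Ephb6 rose, and Ephb1 and Ephb4 were not called. Ephb2, a kinase that binds ephrin-Bs and is known from axons and immune cells, lies on chromosome 4 at 136647539 to 136835988, minus strand. It had 34.2 and 31.2 CPM in MI 1 and 2 and 7.81, 9.01, 7.4 and 9.39 CPM in MI 3 to 6, against 1.23 and 0.894 CPM in sham 1 and 2 and 1.37, 0.611, 0.70 and 0.708 CPM in sham 3 to 6. Every MI library was above 7 CPM and every sham library below 1.4 CPM. Over 12 libraries the estimate was 4.03 ± 0.29 (adjusted p = 1.21e-07, and adjusted p = 0.00125 counted once). Ephb6, an Eph receptor without kinase activity, changed by 1.63 ± 0.31 and Ephb3 by 0.99 ± 0.15. Both calls were lost without sham 1 or sham 2, and that of Ephb3 also without MI 1. Ephb4, the venous endothelial receptor of Efnb2 and the most abundant EphB by TPM, was not called. It had 97.8 and 82.8 CPM in MI 1 and 2 and 70.1 to 71.4 CPM in MI 3 to 6, against 138 and 153 CPM in sham 1 and 2 and 54.7 to 64.5 CPM in sham 3 to 6. By CPM, Ephb4 was lower in MI in replicates 1 and 2 and higher in MI in replicates 3 to 6, with no overlap in either set. By the deposited TPM its values overlapped in replicates 1 and 2, at 45.3 to 50.8 in MI and 46.9 to 50.1 in sham. Ephb2 held 13.5% of the EphB TPM in MI 1 and 2 and 3.29% in MI 3 to 6, against 0.387% in sham 1 and 2 and 0.453% in sham 3 to 6.

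**Figure D3:**
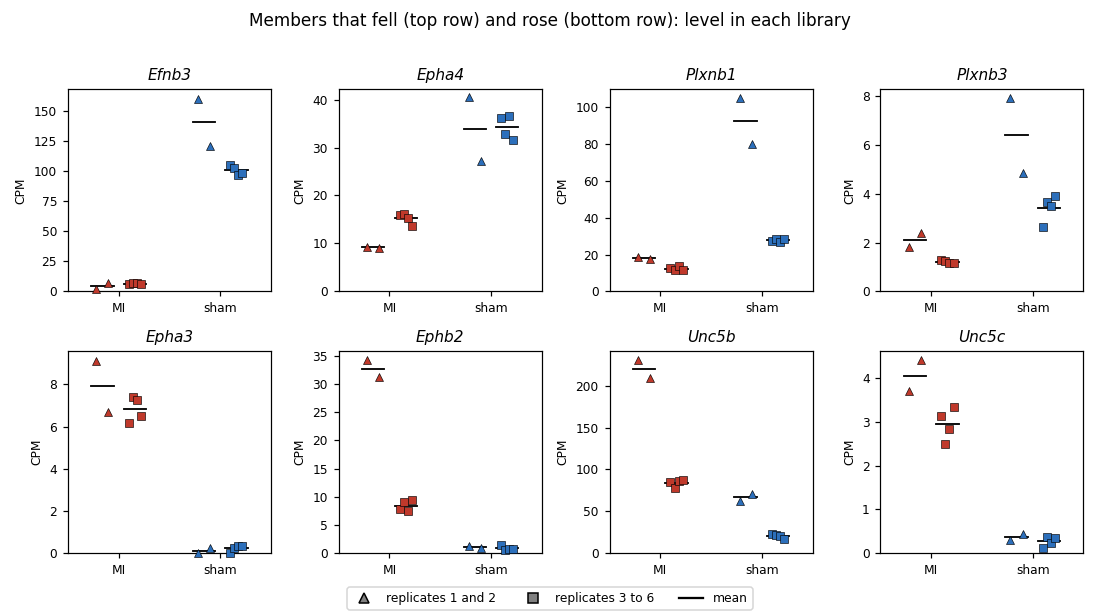
CPM of 4 members that fell (top row) and 4 that rose (bottom row) in each library, MI left and sham right, with triangles for replicates 1 and 2, squares for replicates 3 to 6, and a line at the mean of each set. In all 8 genes the MI and sham libraries do not overlap, and Unc5b and Plxnb1 also differ in level between the sets.

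Both Slits tested rose. Slits are large secreted ligands that repel axons and guide endothelial cells through Robos. Slit2 had 51.6 and 49.4 CPM in MI 1 and 2 and 23.4, 23.9, 24.5 and 23.9 CPM in MI 3 to 6, against 6.08 and 5.96 CPM in sham 1 and 2 and 9.96, 9.91, 11.1 and 10.1 CPM in sham 3 to 6. The groups stood apart in each set, with a log2 fold change of 1.81 ± 0.28 (adjusted p = 7.8e-05, and adjusted p = 0.00527 counted once). Slit3, the most abundant Slit by TPM, had 81.5 and 92.6 CPM in MI 1 and 2 and 18.5, 17.1, 16.8 and 18.1 CPM in MI 3 to 6, against 8.0 and 4.62 CPM in sham 1 and 2 and 13.2, 17.1, 14.9 and 13.1 CPM in sham 3 to 6. In replicates 3 to 6 the highest sham library lay among the MI libraries. Its estimate of 1.35 ± 0.54 (adjusted p = 0.0379, and adjusted p = 0.0376 counted once) came mainly from replicates 1 and 2, where it was 3.79, against 0.27 in replicates 3 to 6. The call of Slit3 was lost when MI 1, MI 2, sham 1 or sham 2 was left out, with estimates of 1.28, 1.23, 0.94 and 0.87. Slit1 was below the filter, with at most 9 counts in a library.

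Among the Robos, Robo1 and Robo2 rose and Robo4 was not called. Robo1, a receptor of Slit2, had 13.98 and 14.2 CPM in MI 1 and 2 and 10.1 to 11.2 CPM in MI 3 to 6, against 4.39 and 2.76 CPM in sham 1 and 2 and 2.36 to 3.62 CPM in sham 3 to 6. No MI library was below 10 CPM and no sham library above 4.4 CPM. Its log2 fold change was 1.84 ± 0.13 (adjusted p = 9.9e-08, and adjusted p = 0.00204 counted once), 1.98 in replicates 1 and 2 and 1.80 in replicates 3 to 6. Robo2 changed by 1.2 ± 0.23, and its call was lost without sham 1 or sham 2. Robo4, an endothelial receptor, made up 79.2% of the Robo TPM in MI 1 and 2 and 86.9% in MI 3 to 6, against 97.8% in sham 1 and 2 and 94.3% in sham 3 to 6.

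The netrins, laminin-like ligands, held 1 member that fell, and the other 3 tested were not called. Ntn1, a ligand of Dcc, neogenin and Unc5 receptors, is on chromosome 11 at 68209364 to 68400823, minus strand. It had 60.3 and 55.2 CPM in MI 1 and 2 and 61.8, 59.1, 59.4 and 55.2 CPM in MI 3 to 6, against 312 and 261 CPM in sham 1 and 2 and 89.6, 87.1, 78.5 and 84.6 CPM in sham 3 to 6. The MI libraries of the sets lay within 55.2 to 61.8 CPM, while the sham libraries of replicates 1 and 2 lay far above those of replicates 3 to 6. The log2 fold change was -1.15 ± 0.25 (adjusted p = 0.00122, and adjusted p = 0.00984 counted once), and the call was lost without MI 1 or MI 2. It was -2.31 in replicates 1 and 2 and -0.54 in replicates 3 to 6. By the deposited TPM, Ntn1 showed no fall in replicates 3 to 6, with 18.62 to 20.97 in MI and 17.45 to 20.19 in sham. Ntn4, a vascular netrin, and Ntn3 were not called, with estimates of -0.16 ± 0.11 and 0.36 ± 0.23. Ntng2 was not called either (-0.45 ± 0.15), and 14.0% of its exon bases overlap 6530402F18Rik on the same strand.

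Both Unc5 receptors tested rose. Unc5 receptors mediate repulsion by netrins, and Unc5b is known from endothelial cells and macrophages. Unc5b, at chromosome 10, 60762593 to 60831581, minus strand, had 231 and 209 CPM in MI 1 and 2 and 84.5, 77.9, 86.03 and 87.3 CPM in MI 3 to 6, against 62.9 and 70.9 CPM in sham 1 and 2 and 22.4, 21.5, 20.7 and 16.7 CPM in sham 3 to 6. The log2 fold change of MI over sham of 1.90 ± 0.083 had the smallest adjusted p of the members (2.08e-09, and 0.00091 counted once) and was similar in the sets, 1.72 in replicates 1 and 2 and 2.04 in replicates 3 to 6. Unc5c had 3.7 and 4.41 CPM in MI 1 and 2 and 3.14, 2.5, 2.84 and 3.34 CPM in MI 3 to 6, against 0.308 and 0.447 CPM in sham 1 and 2 and 0.114, 0.367, 0.233 and 0.354 CPM in sham 3 to 6. Over 12 libraries the estimate was 3.39 ± 0.21 (adjusted p = 3.91e-08, and adjusted p = 0.00136 counted once), and no sham library held more than 6 counts. Unc5a was below the filter of the 12-library test, with 0 to 14 counts in MI and 9 to 27 in sham. In CPM it had 0.577 and 0.643 in MI 1 and 2 and 0.246, 0, 0.123 and 0.185 in MI 3 to 6, against 0.693 and 0.745 in sham 1 and 2 and 1.95, 2.69, 3.15 and 1.77 in sham 3 to 6. After TMM scaling the MI libraries were thus all lower, by little in replicates 1 and 2. There the unscaled counts were higher in MI, 12 and 14 against 9 and 10. The TPM values there overlapped, at 0.12 to 0.35 in MI and 0.22 to 0.27 in sham.

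The change after MI differed between the replicate sets for 11 members by both tests of the interaction, against 9.55% of 14433 genes. The values below are log2 fold changes of replicates 3 to 6 minus those of replicates 1 and 2, with replicates 3 to 6 counted once. For Ephb1, a kinase that binds ephrin-Bs, the difference was 3.66 (adjusted p = 0.0189). Ephb1 had 5.0 and 5.47 CPM in MI 1 and 2 and 9.29, 9.64, 9.74 and 8.4 CPM in MI 3 to 6, against 75.04 and 43.1 CPM in sham 1 and 2 and 9.04, 8.56, 7.12 and 6.25 CPM in sham 3 to 6. Its sham libraries 1 and 2 stood far above all others, and in replicates 3 to 6 the highest sham library lay among the MI libraries. The separate deposited table of replicates 1 and 2 gave Ephb1 at 1.18 and 1.39 FPKM in MI and 13.1 and 7.52 FPKM in sham. For Slit3 the difference was -3.60 (adjusted p = 0.0156), for Slit2 -1.94 (adjusted p = 0.0161), for Epha7 -2.12 (adjusted p = 0.0232) and for Ephb2 -1.73 (adjusted p = 0.0482). In these 4 genes the MI libraries 1 and 2 were higher than MI 3 to 6. Mesothelial and epicardial markers summed to 122 and 211 CPM in MI 1 and 2 and 27.6 to 29.2 CPM in MI 3 to 6, against 47.7 and 46.1 CPM in sham 1 and 2 and 29.8 to 34.6 CPM in sham 3 to 6. The fibroblast sums above were also higher in MI 1 and 2, where Col1a1 averaged 23711 CPM, against 4400 CPM in MI 3 to 6. Pdgfra and Tcf21 also had higher means in MI 1 and 2, but Postn and Dcn had higher means in MI 3 to 6. The part of the mesothelial and fibroblast markers was not tested. For Ntn1 the difference was 1.69 (adjusted p = 0.0201), with sham 1 and 2 higher than sham 3 to 6. Unc5a differed by -3.91 (adjusted p = 0.0418) at the low counts given above.

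The other 4 members that differed were higher in sham than MI in replicates 1 and 2 and higher in MI than sham in replicates 3 to 6, by their TMM-scaled estimates. By the deposited TPM, Plxnd1 and Sema4d were higher in MI in replicates 1 and 2 as well. Plxnd1 had 64.6 to 71.6 TPM in MI and 48.5 to 53.9 TPM in sham there, and Sema4d 46.5 to 53.0 and 36.7 to 43.1 TPM. Robo4 and Sema7a were lower in MI there by TPM too. Robo4 had 33.4 and 29.96 CPM in MI 1 and 2 and 47.2, 44.6, 50.01 and 46.9 CPM in MI 3 to 6, against 79.9 and 103 CPM in sham 1 and 2 and 36.05, 40.2, 41.9 and 35.5 CPM in sham 3 to 6, and differed by 1.74 (adjusted p = 0.0247). Sema7a differed by 1.24 (adjusted p = 0.0235) and Sema4d by 1.15 (adjusted p = 0.0475). Plxnd1, an endothelial plexin and the receptor of Sema3e, had 199 and 209 CPM in MI 1 and 2 and 160.4 to 170.03 CPM in MI 3 to 6, against 229 and 264 CPM in sham 1 and 2 and 87.7 to 94.7 CPM in sham 3 to 6, and differed by 1.05 (adjusted p = 0.0448). Over the 59 members tested within both sets, 17 had estimates of opposite sign with TMM scaling. Of these, 15 were lower in MI in replicates 1 and 2 and higher in MI in replicates 3 to 6. By mean deposited TPM, Epha6, Nrp1, Ntn4, Sema3g, Sema4b, Sema6a and Sema6b, like Plxnd1 and Sema4d, were higher in MI in replicates 1 and 2. Nrp1, for example, had a mean of 59.3 TPM in MI and 48.5 TPM in sham there. The others of the 15 had lower means in MI there by TPM too. The 5 endothelial markers did not move together. Their sum was 558 and 520 CPM in MI 1 and 2 and 914 to 939 CPM in MI 3 to 6, against 897 and 1045 CPM in sham 1 and 2 and 727 to 744 CPM in sham 3 to 6. Pecam1, Cdh5 and Kdr, none of them called, were lower in MI in replicates 1 and 2 and higher in MI in replicates 3 to 6, with Kdr at -1.59 and 0.49 on the log2 scale. Tie1 (-0.88 and -0.13) and Egfl7 (-0.60 and -0.16) were lower in MI in both sets and were called as fallen. Lung epithelium markers also differed between the sets, at 171 to 175 CPM in MI 3 to 6 and 2.79 and 2.62 CPM in MI 1 and 2. The part of these markers was not tested, and processing, tissue sampling and surgery cannot be told apart as sources of the difference between the sets.

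**Figure D4:**
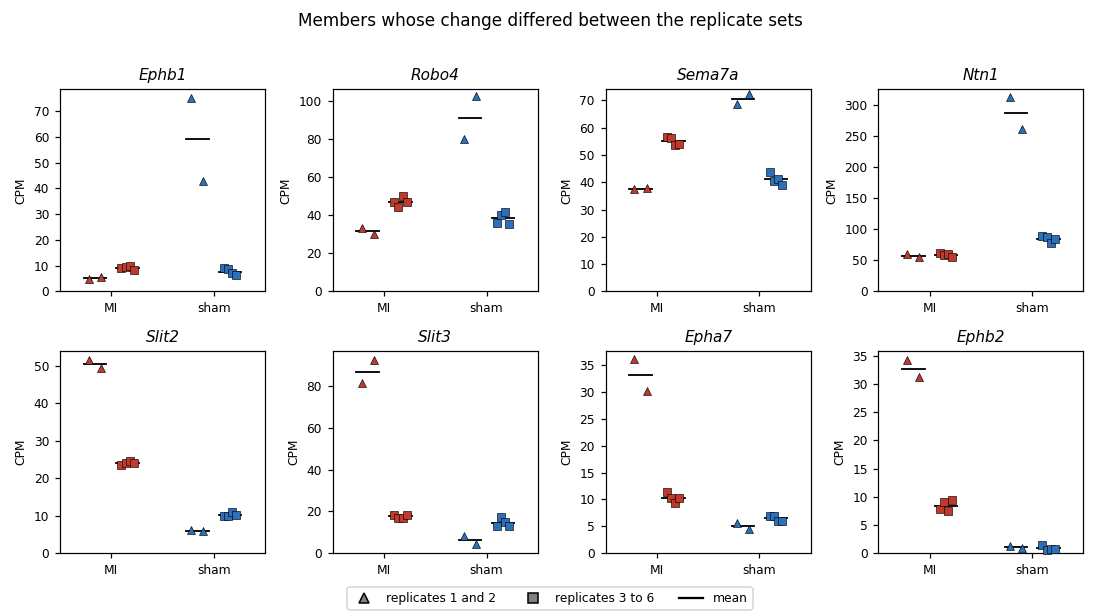
CPM in each library of 8 members whose change after MI differed between the replicate sets, MI left and sham right, with triangles for replicates 1 and 2, squares for replicates 3 to 6, and a line at the mean of each set. For Ephb1 and Ntn1 the sham libraries 1 and 2 stand above the rest, and for Slit2, Slit3, Epha7 and Ephb2 the MI libraries 1 and 2 do.

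Ligands and receptors known to bind each other are set side by side here by their calls. Slit2 and its receptor Robo1 rose, also in every fit that left out 1 library, while the rises of Slit3 and Robo2 were not called without sham 1 or sham 2. Ntn1 fell, mainly in replicates 1 and 2, while Unc5b and Unc5c rose. Sema7a was not called and its receptor Plxnc1 rose, and Sema4d was not called and its receptor Plxnb1 fell. Efnb3 fell, and its receptors Epha4, which fell, and Ephb2 and Ephb3, which rose, did not share a direction.

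Beyond the ligands and receptors, 48 of 54 listed partners and effectors were tested, and of these 27 rose, 7 fell and 14 had no call, by the rule under which 28.1% of all genes rose and 29.8% fell. Among co-receptors and other ligands of the netrin, RGM and Slit systems, 3 of 7 rose and 2 fell. Adora2b, an adenosine receptor described as a netrin receptor, rose by 2.4 ± 0.22 on the log2 scale and Rgma, a neogenin ligand, fell by 1.26. Neo1, neogenin, the most abundant of this list, was not called at 0.35 ± 0.067. Dcc, the classic netrin receptor, was at or near 0 CPM in every library. Among semaphorin co-receptors and partners, 6 of 11 rose and 1 fell. Cd72, a Sema4d receptor of immune cells, had a mean of 86.2 CPM in MI 1 and 2 and 49.1 CPM in MI 3 to 6, against 4.09 CPM in sham 1 and 2 and 5.92 CPM in sham 3 to 6 (3.49 ± 0.31). Itgb1, the beta subunit through which Sema7a can signal, rose by 0.78 ± 0.088, and Flt1, a VEGF receptor, fell by 0.69. Of 29 cytoplasmic effectors, 17 rose and 4 fell. Srgap3, a GTPase-activating protein of Robo signalling, rose by 3.16 ± 0.23, Dpysl3, a collapsin response mediator, by 2.44 ± 0.12, and Dpysl4 fell by 1.90. Adam10, a protease that cleaves ephrins, rose by 1.11 ± 0.068.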

How the data were processed

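RNA came from wild-type left ventricles 7 days after MI or sham surgery. Magzol was used for RNA extraction and oligo(dT) beads for mRNA, per the labels' protocols, which do not give strandedness. The submitters' processing notes name Bowtie2, RSEM and DESeq2 without versions for replicates 3 to 6, no tool for replicates 1 and 2, and GRCm38 for all. The authors deposited expected counts, unscaled and fractional, with TPM (a common total per library) and FPKM (relative to gene length and depth) for 18050 genes. A second deposited table holds FPKM of replicates 1 and 2. Of the genes, 425 are blank in replicates 1 and 2, none of them a member, and were left out of the 12-library tests.

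Expected counts were rounded and tested over all genes with edgeR 4.0.16 in R 4.3.3 (quasi-likelihood F test, TMM scaling, filterByExpr, Benjamini-Hochberg), with 12 libraries and the replicate set as covariate, and again with replicates 3 to 6 of each group summed. An interaction term tested whether the sets differed. Standard errors were derived from each fold change and its F statistic. DESeq2 1.42.0 and limma 3.58.1 on log2(FPKM + 1) and log2(FPKM + 0.1) were alternatives. Positions and exon overlaps came from GENCODE M21, and promoters from RefSeq. Members, lists and rules were chosen with earlier results of these data known. Members named with values are, per group of the families, the largest called rise and fall and the most abundant by TPM, plus those that differed between sets. The rule named 32 members (16 that rose, 5 that fell, 11 without a call), and others are named where a count is small.

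On simulated data in which replicates 3 to 6 of a group shared 1 deviation, the 12-library test made 2779 false calls and requiring both tests left 15, with 98% of 2-fold and 100% of 4-fold changes recovered. There the test within replicates 3 to 6 made 7754 false calls, so its counts are descriptions. For the difference between sets, both tests recovered 14% of 2-fold and 94% of 4-fold differences with 1 false call. Changes were planted in few genes, all with higher counts, at a preset spread between libraries. Recovery for members with few counts was therefore not simulated.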

Additional observations from a re-analysis of the deposited data

Results flagged for a closer look

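In 5 of 128 groups of 4 to 6 libraries examined, 1 library lay apart from the others by Dixon's criterion, which chance gives in about 1 in 20 groups. Ephb2 had 1.37 CPM in sham 3, against 0.611 to 0.708 CPM in sham 4 to 6. Efnb3 had 2.45 CPM in MI 1 and 6.05 to 6.91 CPM in the other MI libraries. Nrp1 had 265 CPM in MI 4 and 258 to 259 CPM in MI 3, 5 and 6. Plxnc1 had 51.7 CPM in MI 2 and 21.5 to 28.4 CPM in the other MI libraries. Sema3b had 58.6 CPM in MI 1 and 26.2 to 34.0 CPM in the other MI libraries.

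For 11 members the log2 fold change of MI over sham differed between the replicate sets by a test of the difference itself, 6 with a higher and 5 with a lower value in replicates 3 to 6. The differences (replicates 3 to 6 minus replicates 1 and 2) were 3.66 for Ephb1, 1.74 for Robo4, 1.69 for Ntn1, 1.24 for Sema7a, 1.15 for Sema4d and 1.05 for Plxnd1. They were -3.91 for Unc5a, -3.60 for Slit3, -2.12 for Epha7, -1.94 for Slit2 and -1.73 for Ephb2. With TMM scaling, Ephb2, Slit2, Slit3 and Epha7 had positive values in both sets, Ntn1 and Unc5a negative values in both, and the other 5 values of opposite sign. The adjusted p ran from 0.0156 for Slit3 to 0.0482 for Ephb2 with replicates 3 to 6 counted once.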

How the results depend on the processing

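The number of members that rose, 27, was 26 to 34 with other scalings, DESeq2 or limma, 11 at an adjusted p under 0.01, 16 without the set covariate, and, in a setting chosen after seeing the data, 43 in replicates 3 to 6 alone. Leaving out each library in turn gave 11 to 29 rises and 4 to 6 falls, with the lowest counts of rises without sham 2 (11) and sham 1 (12). The number that fell, 6, was 5 to 7 in the planned settings that kept every library. It was 9 in replicates 3 to 6 alone and 16 in replicates 1 and 2 alone, both chosen after seeing the data. With the 12-library test alone, 40 members differed between the sets, against 11 by both tests. The share of all genes that differed by that test alone was not taken, so the 40 is a description. In all, 11 rises and 4 falls were called in every fit that left out 1 library. Scaling to library size alone shifted the all-gene median by 0.41 on the log2 scale and the split of all calls to 6264 up and 2477 down, against 3823 up and 4055 down. With log2(FPKM + 1) the all-gene median stood at 0.30. Both settings gave 34 rises and 5 falls among the members. No called member that was refitted changed direction, though Plxna2 stood at -0.010 under library size, and Plxnb2 was called there, at 1.09. Of those not called, library size turned Ephb4 (-0.10) to 0.30, Efna1 (-0.14) to 0.27, Robo4 (-0.34) to 0.065, Nrp1 (-0.066) to 0.34, Sema3b (-0.088) to 0.32 and Sema7a (-0.056) to 0.35, log2(FPKM + 1) turned the same members positive, and leaving out MI 2 turned Ephb4, Efna1, Sema3b and Sema7a positive. Ephb1 was called at -1.68 without the set covariate. A replicate block gave 18 rises and 6 falls. The correlation of same-numbered deviations was 0.0598 for replicates 1 and 2 and -0.0391 to -0.0162 for 3 to 6. It cannot decide whether the numbers pair the libraries. The deviations of replicates 1 and 2 mirror each other and so give 1 value, and replicates 3 to 6 are close to repeat libraries. The cause of these changes was not tested. Depth limits Epha3, Unc5a, Unc5c and the 12 members below the filter.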
